A study of Mus musculus with 8 samples.

Results

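The genes of the unfolded protein response and of the integrated stress response were examined in mouse liver. The list held 33 genes, chosen by their place in the pathway, and 32 of them had a probe set annotated with their symbol alone, of 22180 genes so represented on the arrays. Pdia4 was left out, because its probe set is annotated with a second gene as well. Where a gene had several probe sets, the brightest over all 8 arrays stood for it. All 32 lay above the filter on low signal, which removed the dimmest 25% of genes and left 16635 for testing.

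The arrays compared 4 liver samples of the rilpivirine group with 4 liver samples of the control group. The rilpivirine samples came from C57BL/6 mice given this non-nucleoside inhibitor of HIV reverse transcriptase daily by mouth. The control samples were of the same strain and without the drug in their labels. Both groups carry the label non-alcoholic fatty liver disease. The protocol names a normal and a 60% fat diet over 3 months, does not assign a diet to any sample, and gives the dose only as equivalent to human use; the labels state neither age nor sex. Whether the samples of a group came from separate animals is not stated, so p-values measure the spread between these samples, which may be technical, and 4 arrays a group limit the precision. Below, a liver stands for a liver sample.

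The endoplasmic reticulum (ER) folds secreted and membrane proteins, and hepatocytes, which secrete most plasma proteins, carry a large one. When unfolded proteins build up there, the membrane sensors IRE1 (gene Ern1), PERK (Eif2ak3) and ATF6 respond: IRE1 splices the mRNA of Xbp1, ATF6 is cut to release a transcription factor, and both routes raise chaperones and the machinery that returns misfolded proteins to the cytosol for degradation. PERK phosphorylates the initiation factor eIF2, which slows translation in general and favours translation of ATF4, a route that other eIF2 kinases share and that is then called the integrated stress response. An array that gives a single value per gene does not report Xbp1 splicing, cleavage of ATF6 or translation of Atf4, only the amounts of their mRNAs.

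The chaperone branch is driven through a promoter element, the ER stress response element (ERSE), to which the factor NF-Y and cleaved ATF6 bind. RefSeq promoter windows (GRCm38.p6, 250 bases before to 50 after a start) were found for 29 of the 33 genes, as 30 windows. On either strand, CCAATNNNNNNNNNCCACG occurred in the windows of 9 of these 29 genes, against 0.119% of all 32851 windows (39 windows). All 9 were chaperone or degradation genes: 7 of the 12 chaperones with a window (Hspa5, Hsp90b1, Dnajc3, Pdia6, Calr, Canx and Creld2) and 2 of the 6 degradation genes with a window (Derl3 and Syvn1). The related element ERSE-II, ATTGGNCCACG, occurred for Dnajb11 and Herpud1, against 0.0365% of all windows. The letters TGATGNAAT, the composite element through which ATF4 and C/EBP factors act, were in 0 of the 30 windows and in 0.965% of all windows, and TGACGTGG, the core of a site of XBP1 and ATF6, was in 0 of the 30 and in 0.676% of all. A match is a description of the letters, and a window without one says nothing of the factor. The stretches below are those of genes whose values are given sample by sample, with Hsp90b1, Canx and Syvn1 beside them; each is written 5′ to 3′ on the strand of the gene, and capitals mark the fixed letters of the element.
Hspa5, chr2:34772005-34772063, plus strand: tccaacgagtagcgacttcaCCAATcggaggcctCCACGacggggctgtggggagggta
Hsp90b1, chr10:86705513-86705571, minus strand: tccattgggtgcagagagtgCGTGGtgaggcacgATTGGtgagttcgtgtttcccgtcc
Dnajc3, chr14:118937807-118937865, plus strand: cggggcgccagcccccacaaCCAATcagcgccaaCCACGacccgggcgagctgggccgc
Canx, chr11:50325780-50325838, minus strand: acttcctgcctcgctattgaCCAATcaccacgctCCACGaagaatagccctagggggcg
Derl3, chr10:75893222-75893280, plus strand: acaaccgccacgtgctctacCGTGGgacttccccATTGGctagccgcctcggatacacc
Syvn1, chr19:6046512-6046570, plus strand: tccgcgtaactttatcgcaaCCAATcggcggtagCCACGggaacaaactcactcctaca
Herpud1, chr8:94386357-94386407, plus strand (ERSE-II): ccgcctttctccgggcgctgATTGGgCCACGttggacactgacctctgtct
In Hsp90b1 and Derl3 the element lies reversed, so that it reads as CGTGG before ATTGG; Hsp90b1 has another match farther upstream.

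Values are log2 signals after RMA, the authors' normalization, which evens out total signal between arrays. The array medians still differed, from 3.33 log2 in rilpivirine replicate 4 to 3.45 in rilpivirine replicate 2. Differences are rilpivirine minus control. In a liver homogenate, fewer cells of a type and less RNA per cell cannot be told apart. Hepatocyte markers (Alb, Ttr, Hnf4a and 7 others) were bright, at a median of 12.27 log2, and their mean per sample moved by no more than 0.11 log2 from the mean of all arrays. The 7 measured markers of pancreatic acinar cells, which have an even larger ER, were dim at a median of 2.64 log2, with 4 of the 7 under the filter value of 2.72. The array of rilpivirine replicate 2 stood apart, with a mean correlation of 0.965 with the other arrays (0.976 to 0.981 for the rest) and the highest signal of 75 small nucleolar RNA probe sets, 0.49 log2 above the mean against -0.60 to 0.27 elsewhere. The counts of genes higher and lower are therefore given with and without it, in a comparison added after seeing the data.

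None of the 32 stress genes passed the test between rilpivirine and control livers. Limma, with Benjamini-Hochberg adjustment over all genes tested, gave the 32 genes adjusted p-values between 0.890 and 0.996, and called 0% of the 16635 genes at 0.05. At an unadjusted p under 0.05, 1 of the 32 was lower (Derl3) and 0 were higher, where 3.21% of all genes tested were lower and 2% higher. In 0 of the 32 did the rilpivirine and control values separate without overlap, where 1.3% of all genes tested separated upward and 1.73% downward. Of the 32, 11 were higher and 21 lower, with a median difference of -0.06, against a median of -0.03 over the 16635 genes tested, of which 43.1% were higher. This tally depended on the arrays kept and on the scaling. Without rilpivirine replicate 2, the array that stood apart, it was 19 higher and 13 lower, at a median of 0.05. It was 10 and 22, at -0.17, without rilpivirine replicate 4, and 9 and 23, at -0.09, without rilpivirine replicate 1. After a further quantile normalization it was 16 and 16. With each array centred on the genes tested it was 15 and 17, and with each centred on its own median 10 and 22.

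The intervals show how large a difference these arrays could have missed. The 95% confidence interval of the difference lay within 1 log2 unit (a 2-fold change) on either side of 0 for 31 of the 32 genes, and within 0.5 log2 (1.41-fold) for 19 of them, much as for all genes tested, of which 96.8% and 61.3% had intervals that narrow. The exception at 1 log2 was Dnajb9, whose interval ran from -1.30 to 0.71. For Ddit3, which encodes CHOP, the factor that links lasting ER stress to cell death, the interval ran from -0.13 to 0.36, and for Atf4 from -0.50 to 0.39. Ddit3 was dim, at a mean of 4.55 log2 over all arrays, which limits what its narrow interval shows.

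**Figure D1:**
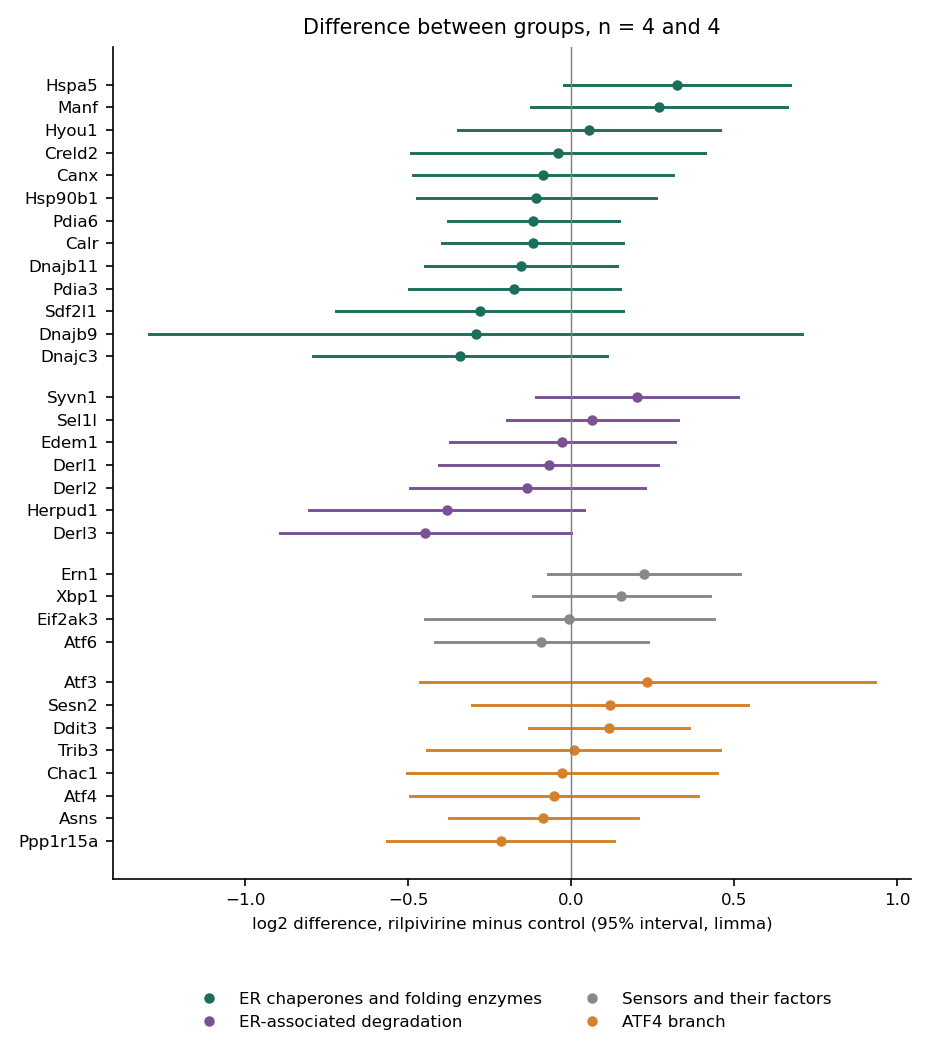
Difference of each gene between rilpivirine and control livers (log2, rilpivirine minus control; points, with 95% confidence intervals from limma as lines; n = 4 and 4), grouped by role. Every interval contains 0 except that of Derl3, which ends just below it, and Dnajb9 and Atf3 have the widest intervals.

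Among the chaperones and folding enzymes, 3 of 13 were higher and 10 lower with rilpivirine, at a median difference of -0.12, and 0 passed the test. Without rilpivirine replicate 2 the count was 6 higher and 7 lower. Hspa5 encodes BiP, the Hsp70 chaperone of the ER lumen that holds the sensors inactive and is the usual readout of ER stress; in RefSeq on GRCm38.p6 the gene spans chr2:34772090-34776529. It measured 7.71, 7.43, 7.74 and 8.11 log2 in rilpivirine replicates 1 to 4, against 7.67, 7.28, 7.46 and 7.29 log2 in control replicates 1 to 4. Rilpivirine replicate 4 was the highest, and the other rilpivirine values lay between 7.43 and 7.74. Control replicates 1 and 3 lay among them, so the groups overlapped. The difference of 0.32 ± 0.16 log2 (SE), a 1.25-fold level, had an unadjusted p of 0.064 and an adjusted p of 0.890 in limma. It was 0.20 without rilpivirine replicate 4 and 0.43 without replicate 2. Over the 19 alternatives run the difference lay between 0.20 and 0.50.

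Dnajc3, which encodes the co-chaperone p58IPK of BiP, had the lowest mean difference of the group. It measured 8.53, 8.40, 9.20 and 9.27 log2 in rilpivirine replicates 1 to 4, against 9.42, 8.96, 9.16 and 9.22 log2 in control replicates 1 to 4. The rilpivirine values formed a low and a high pair, replicates 1 and 2 below every control and replicates 3 and 4 among the controls, and the difference was -0.34 ± 0.20 log2 (SE, adjusted p = 0.890 in limma). The difference was -0.19 without rilpivirine replicate 2, and 0.04 with replicates 1 and 2 left out together.

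The same low pair of samples appeared in other chaperones, which were picked out after their values were seen. Dnajb9, which encodes the BiP co-chaperone ERdj4 and is a target of spliced XBP1, varied most of all members. It measured 6.65, 5.69, 7.72 and 7.61 log2 in rilpivirine replicates 1 to 4, against 8.02, 6.33, 6.98 and 7.51 log2 in control replicates 1 to 4, a range of 2.04 within the rilpivirine group and of 1.68 within the control group. Its difference of -0.29 ± 0.45 log2 (SE) was 0.12 without rilpivirine replicate 2, so its direction rests on that array. The Hsp90 of the ER, Hsp90b1 (GRP94), measured 10.42 and 10.47 log2 in rilpivirine replicates 1 and 2 and 10.93 and 11.03 in replicates 3 and 4, and the lowest control value was 10.65. The membrane lectin calnexin (Canx), which holds newly made glycoproteins, measured 10.04 and 9.90 log2 in rilpivirine replicates 1 and 2 and 10.58 and 10.61 in replicates 3 and 4, against 10.13 to 10.57 in the controls. Pdia3, the disulfide isomerase that works with the lectins, measured 9.15 and 9.04 log2 in rilpivirine replicates 1 and 2 and 9.52 and 9.62 in replicates 3 and 4, against 9.44 to 9.65 in the controls. In Hsp90b1, Dnajc3, Pdia3 and Canx, both low values lay below all 4 control values. The differences of Hsp90b1, Pdia3 and Canx were -0.11 ± 0.17, -0.17 ± 0.15 and -0.09 ± 0.18 log2 (SE), and -0.03, -0.08 and 0.04 without rilpivirine replicate 2.

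Other chaperones were ordered differently across the same livers. Creld2, a folding factor of the ER lumen, measured 8.04, 7.16, 7.12 and 7.55 log2 in rilpivirine replicates 1 to 4, against 7.20 to 7.70 log2 in the controls. Hyou1, the large Hsp70-related chaperone that exchanges nucleotide on BiP, measured 9.02, 8.57, 8.07 and 8.66 log2 in rilpivirine replicates 1 to 4, against 8.38 to 8.66 log2 in the controls. In both, rilpivirine replicate 1 was the highest of the 8 samples and replicate 3 the lowest, so replicate 1 was high in these and low in Hsp90b1 and Pdia3. Their differences were -0.04 ± 0.20 log2 for Creld2, 0.06 without rilpivirine replicate 2, and 0.05 ± 0.18 log2 for Hyou1 (SE). Manf, a secreted factor kept in the ER by BiP, had a difference of 0.27 ± 0.18 log2 (SE), and measured 4.50 and 4.61 log2 in rilpivirine replicates 1 and 4 and 4.02 and 3.87 in replicates 2 and 3, against 3.74 to 4.17 in the controls.

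Sdf2l1, which forms a complex with the ER's J-proteins, measured 6.71, 6.09, 6.19 and 6.46 log2 in rilpivirine replicates 1 to 4, against 6.27, 7.14, 6.44 and 6.72 log2 in control replicates 1 to 4; control replicate 2 was the highest, the groups overlapped, and the difference was -0.28 ± 0.20 log2 (SE). The remaining members of the group varied less. Dnajb11 (ERdj3, a co-chaperone of BiP), Pdia6 (a disulfide isomerase) and Calr (calreticulin, the lumenal lectin) had differences of -0.16 ± 0.13, -0.12 ± 0.12 and -0.12 ± 0.13 log2 (SE), with adjusted p-values of 0.898, 0.911 and 0.912 in limma.

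Of the 7 genes of ER-associated degradation, 2 were higher and 5 lower, at a median difference of -0.07, and without rilpivirine replicate 2 these were 4 and 3. Derl3, a derlin of the channel through which misfolded proteins leave the ER, had the smallest unadjusted p of all members; the gene spans chr10:75893398-75895941. It measured 4.16, 3.95, 4.11 and 3.99 log2 in rilpivirine replicates 1 to 4, against 4.07, 5.16, 4.46 and 4.31 log2 in control replicates 1 to 4. The rilpivirine values lay within 0.21 log2, control replicate 2 stood highest, and control replicate 1 lay among the rilpivirine values. The difference was -0.45 ± 0.20 log2 (SE, unadjusted p = 0.0492, adjusted p = 0.890 in limma), and lay between -0.65 and -0.23 over the 19 alternatives run, -0.23 being the value without control replicate 2. Derl3 is also high in plasma cells. The 8 measured B and plasma cell markers averaged -0.04 log2 from the mean of all arrays in control replicate 2, where Mzb1 was the highest of the 8 samples at 4.03 log2 (mean of all arrays 3.59) while Jchain, at 2.73 log2, and Tnfrsf17, at 2.67 log2, lay below their means of 2.97 and 2.78; their part in the result was not tested.

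Herpud1, which encodes the scaffold HERP of the degradation complex and responds to all branches, measured 10.35, 9.70, 10.30 and 9.81 log2 in rilpivirine replicates 1 to 4, against 10.58, 10.04, 10.71 and 10.35 log2 in control replicates 1 to 4. Rilpivirine replicates 2 and 4 lay below every control, and replicates 1 and 3 lay within the control range. The difference was -0.38 ± 0.19 log2 (SE), a 1.30-fold lower level, with an unadjusted p of 0.0713 and an adjusted p of 0.890 in limma. Over the 19 alternatives run its difference lay between -0.51 and -0.27.

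The ubiquitin ligase of the complex, Syvn1 (HRD1), had a difference of 0.20 ± 0.14 log2 (SE), and its partner Sel1l, which stabilises it, one of 0.06 ± 0.12 (SE). Edem1, a lectin that hands misfolded glycoproteins to the complex, had one of -0.03 ± 0.16 (SE), Derl1 one of -0.07 ± 0.15 (SE) and Derl2 one of -0.13 ± 0.16 (SE). Without rilpivirine replicate 2, Edem1 was at 0.08 and Derl1 at 0.05. Edem1 and Derl2 each had a second, dimmer probe set, in which the differences were 0.0013 and 0.0072 log2.

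The 4 sensors and their transcription factors had 2 members higher and 2 lower, at a median difference of 0.07, and all 4 higher without rilpivirine replicate 2. Ern1, the kinase and endonuclease IRE1, measured 7.24, 7.40, 7.12 and 7.15 log2 in rilpivirine replicates 1 to 4, against 7.19, 7.18, 6.90 and 6.76 log2 in control replicates 1 to 4. Its substrate Xbp1 measured 8.42, 8.42, 8.14 and 8.45 log2 in rilpivirine replicates 1 to 4, against 8.24, 8.33, 8.0 and 8.25 log2 in control replicates 1 to 4. In both genes the groups overlapped, and rilpivirine replicate 2, the lowest array for most chaperones, was the highest for Ern1. The differences were 0.22 ± 0.13 and 0.15 ± 0.12 log2 (SE), with adjusted p-values of 0.890 and 0.893 in limma. Atf6 had a difference of -0.09 ± 0.15 log2 (SE) and Eif2ak3, the kinase PERK, one of -0.0063 ± 0.20 (SE); without rilpivirine replicate 2 they were 0.03 and 0.14.

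The ATF4 branch had 4 of 8 members higher and 4 lower, at a median difference of -0.01, and 5 higher and 3 lower without rilpivirine replicate 2. Atf4 itself measured 5.71, 5.27, 5.30 and 6.19 log2 in rilpivirine replicates 1 to 4, against 5.93, 5.59, 5.70 and 5.46 log2 in control replicates 1 to 4. Rilpivirine replicate 4 was the highest of the 8 and replicates 2 and 3 the lowest, and the difference was -0.05 ± 0.20 log2 (SE, adjusted p = 0.967 in limma), which was 0.06 without replicate 2 and -0.24 without replicate 4. Ddit3 measured 4.62, 4.55, 4.49 and 4.76 log2 in rilpivirine replicates 1 to 4, against 4.45, 4.39, 4.57 and 4.55 log2 in control replicates 1 to 4. The groups overlapped within a narrow range, and the difference was 0.12 ± 0.11 log2 (SE, adjusted p = 0.904 in limma).

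Ppp1r15a encodes GADD34, the subunit that directs a phosphatase to eIF2 and so ends the response. It measured 3.97, 3.88, 4.18 and 4.56 log2 in rilpivirine replicates 1 to 4, against 4.54, 4.24, 4.42 and 4.26 log2 in control replicates 1 to 4. Rilpivirine replicates 1 to 3 lay below every control and replicate 4 above every control, and the difference was -0.22 ± 0.16 log2 (SE, adjusted p = 0.890 in limma). Atf3, a repressor induced by ATF4, measured 4.76, 5.05, 4.96 and 6.29 log2 in rilpivirine replicates 1 to 4, against 5.58, 5.11, 4.85 and 4.61 log2 in control replicates 1 to 4. Its difference of 0.23 ± 0.32 log2 (SE) became -0.11 without rilpivirine replicate 4.

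The pseudokinase Trib3, a target of ATF4 and CHOP that restrains AKT, ranged over 1.05 log2 within the rilpivirine group and 0.34 within the control group, with a difference of 0.0070 ± 0.20 log2 (SE). Chac1, which breaks down glutathione, had a difference of -0.03 ± 0.22 log2 (SE), and Sesn2, a stress-induced sensor that restrains mTORC1, one of 0.12 ± 0.19 (SE). Asns, the asparagine synthetase, was dim at a mean of 3.28 log2 over all arrays, near the filter value of 2.72, and had a difference of -0.09 ± 0.13 log2 (SE).

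**Figure D2:**
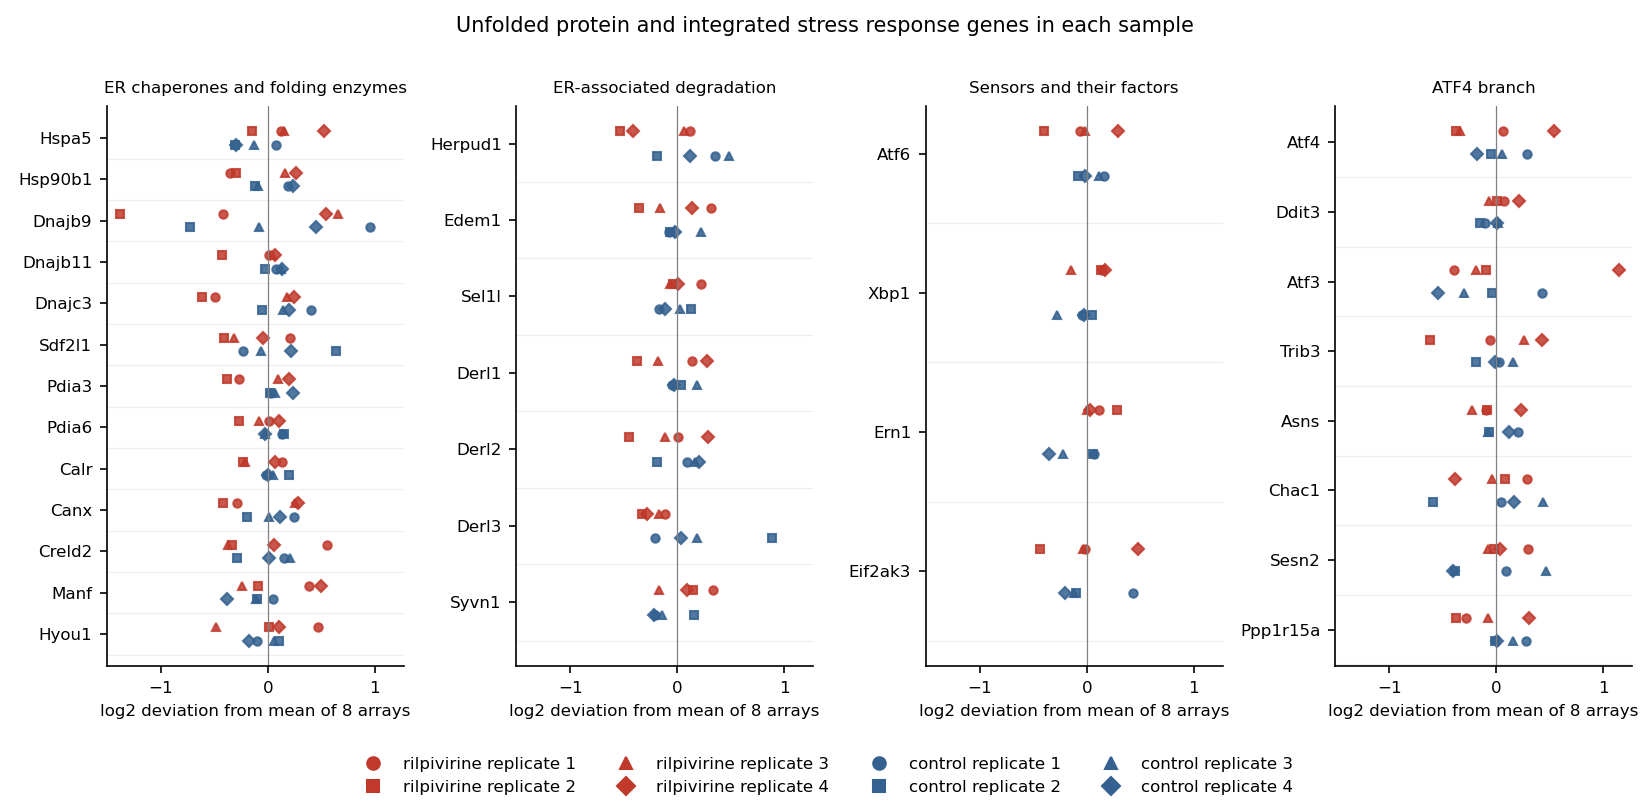
Signal of each of the 32 genes in each sample, as the log2 deviation from the gene's mean over 8 arrays (rilpivirine red and above, control blue and below; the marker shape gives the replicate number). Rilpivirine replicate 2 (red square) is the lowest of 8 in 18 genes and rilpivirine replicate 4 (red diamond) the highest in 15, and Dnajb9 and Atf3 spread most widely.

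The branches were then set against each other within each sample. The ATF4 branch was dimmer, at a median of 4.74 log2 against 8.27 for the chaperone and degradation genes. The comparison was thus made between unlike signal levels. The 20 chaperone and degradation genes averaged 0.06, -0.35, -0.05 and 0.15 log2 from their means over all arrays in rilpivirine replicates 1 to 4, and 0.08, 0.003, 0.06 and 0.03 log2 in control replicates 1 to 4. The 8 genes of the ATF4 branch averaged -0.01, -0.19, -0.09 and 0.31 log2 in rilpivirine replicates 1 to 4, and 0.16, -0.19, 0.11 and -0.11 log2 in control replicates 1 to 4. Rilpivirine replicate 2 was low and replicate 4 high in both. The chaperone and degradation average minus the ATF4 average was -0.05 ± 0.13 log2 in rilpivirine livers and 0.05 ± 0.13 log2 in control livers (SD, n = 4 each), and the groups overlapped, with -0.16 to 0.07 log2 in rilpivirine livers and -0.07 to 0.19 log2 in controls. The difference between the groups was -0.10 log2, and -0.07 without rilpivirine replicate 2.

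**Figure D3:**
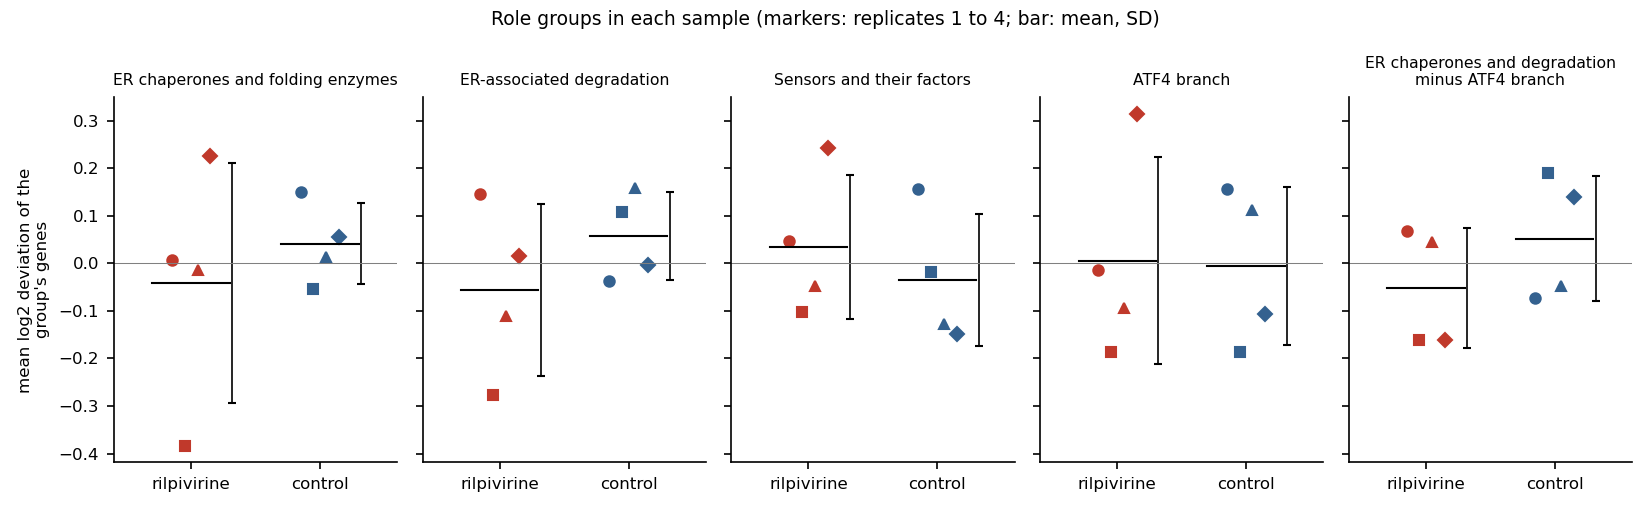
Mean log2 deviation of the genes of each role in each sample (points; marker shapes give replicates 1 to 4; horizontal bar, mean; whisker, SD; n = 4 per group), with the difference between the chaperone and degradation average and the ATF4 average in the last panel. The rilpivirine and control points overlap in every panel, and rilpivirine replicates 2 and 4 lie at opposite ends of the chaperone panel.

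The rilpivirine livers were also more widely spread in most of these genes. The standard deviation was larger in the rilpivirine group than in the control group for 27 of 32 genes (84.4%), where 69.8% of all genes tested showed the same, and the median standard deviation was 0.292 log2 with rilpivirine and 0.179 in controls, against 0.226 and 0.165 log2 over all genes tested. Without rilpivirine replicate 2 the count was 22 of 32 and the share of all genes 57.9%, and without rilpivirine replicate 4 it was 22 of 32 and 65.2%. Rilpivirine replicate 2 held the lowest of the 8 values in 18 of 32 genes (56.3%) and in 30.2% of all genes tested; rilpivirine replicate 4 held the highest in 15 of 32 (46.9%) and in 16.6% of all genes tested. By role, replicate 2 was lowest in 8 of 13 chaperones and 5 of 7 degradation genes, and replicate 4 was highest in 6 of 8 genes of the ATF4 branch. No test was made of these counts, as the genes of a sample are not independent. Without rilpivirine replicate 2 the median differences were -0.03 for chaperones, 0.05 for degradation genes, 0.14 for the sensors and 0.10 for the ATF4 branch; without rilpivirine replicate 4 they were -0.20, -0.17, -0.02 and -0.12.

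The unfolded protein response follows a daily rhythm in mouse liver, so the clock genes are given beside it. Of 17 measured, 4 were higher and 13 lower, with or without rilpivirine replicate 2, and 0 passed the adjusted threshold. At an unadjusted p under 0.05, 3 were higher and 9 lower, where 2% and 3.21% of all genes tested were. Arntl (BMAL1), Nr1d1 (REV-ERB alpha) and Npas2 had differences of 0.69 ± 0.19, 0.67 ± 0.22 and 0.49 ± 0.17 log2 (SE), and Dbp, Per3 and Ciart ones of -0.88 ± 0.30, -0.81 ± 0.22 and -0.91 ± 0.35 (SE); these were picked out after their values were seen. Their average mixes both directions and was -0.08, -0.30, 0.03 and -0.15 log2 from the mean in rilpivirine replicates 1 to 4, and 0.10, 0.08, 0.22 and 0.10 log2 in control replicates 1 to 4. The part of collection time in the results was not tested.

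In several cell type lists most markers leaned one way, or values were extreme in the same samples. No list was tested, and 0 of these markers passed the adjusted threshold. In every list the rilpivirine and control averages overlapped. All 8 sinusoidal endothelium markers were higher with rilpivirine, at a median difference of 0.29, with 3 at an unadjusted limma p under 0.05. Of all genes tested, 43.1% were higher, and at that threshold 2% were higher and 3.21% lower. All 8 monocyte and lipid-associated macrophage markers were lower, at a median of -0.29, with 1 of the 7 tested at that threshold. Without rilpivirine replicate 2 the endothelium list had 8 higher and 0 lower, at a median of 0.26. The monocyte list then had 1 higher and 7 lower, at -0.18. Of 9 Kupffer cell markers, 1 was higher and 8 lower, at a median of -0.13, and at -0.14 without rilpivirine replicate 2. The lean was smaller in other settings: 4 higher and 5 lower at -0.01 without rilpivirine replicate 4, and 3 and 6 at -0.05 after quantile normalization. Timd4, Vsig4 and Cd5l had differences of -0.04, -0.01 and 0.04 log2. C1qa and C1qb were at that threshold, with differences of -0.33 ± 0.11 and -0.50 ± 0.14 log2 (SE, adjusted p = 0.855 and 0.777 in limma). Both were lower without overlap, as were 1.73% of all genes tested. The monocyte list stood at -0.45 log2 in rilpivirine replicate 2 and 0.36 in replicate 4, against -0.05 to 0.46 log2 in controls. The stellate cell and fibroblast list was the lowest of the 8 samples in rilpivirine replicate 2, at -0.24 log2, and the highest in replicate 4, at 0.30. The skeletal muscle list was the reverse, at 0.29 and -0.18, but its 6 markers were dim. Their median was 3.73 log2, with 1 under the filter value, which limits what this list shows. Of 4 adipocyte markers, Retn stood at 5.38 log2 in rilpivirine replicate 4, against 2.96 to 3.32 log2 in all other samples, and Plin1 at 4.25, against 3.24 to 3.81, while Adipoq and Lep were dim in every sample. The part of these cells in the results was not tested.

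Of the pathway's other genes, 135 were listed, 126 measured and 125 tested, and 0 passed the adjusted threshold. At an unadjusted p under 0.05, 6 were higher and 8 lower, where 2% and 3.21% of all genes tested were. Without rilpivirine replicate 2, the split of all 126 was 66 higher and 60 lower, against 52 and 74 with all arrays. Without rilpivirine replicate 4 it was 36 and 90. The 39 further genes of ER import and folding had 11 higher and 28 lower, at a median difference of -0.09. These became 18 and 21 at -0.01 without rilpivirine replicate 2, and 18 and 21 at -0.03 after quantile normalization. Without rilpivirine replicate 4 they were 7 and 32, at -0.19. All 5 past the unadjusted threshold were lower. Sec61b and Sec61g, small subunits of the channel through which nascent proteins enter the ER, had differences of -0.64 ± 0.15 and -0.59 ± 0.21 log2 (SE, adjusted p = 0.772 and 0.855 in limma). Sec61b was dim, measuring 2.72, 2.71, 3.14 and 3.21 log2 in rilpivirine replicates 1 to 4, against 3.53, 3.44, 3.59 and 3.75 log2 in control replicates 1 to 4; these did not overlap, but its other probe set, dimmer still, had a difference of 0.05. The prolyl isomerases Fkbp11 and Ppib had differences of -0.78 ± 0.27 and -0.29 ± 0.12 log2 (SE), and the disulfide isomerase Pdia5 one of -0.39 ± 0.15 (SE).

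Among 19 further degradation genes, 6 were higher and 13 lower, at a median of -0.13, and 8 and 11 at -0.04 without rilpivirine replicate 2. Selenok, a selenoprotein of the ER membrane, measured 4.89, 4.27, 4.85 and 4.63 log2 in rilpivirine replicates 1 to 4, against 5.20, 4.98, 5.11 and 5.01 log2 in control replicates 1 to 4, without overlap, and had a difference of -0.41 ± 0.15 log2 (SE, adjusted p = 0.859 in limma). Vcp, the ATPase p97 that pulls misfolded proteins out of the membrane, had a difference of 0.28 ± 0.12 log2 (SE, adjusted p = 0.890 in limma), also without overlap and higher with rilpivirine, with -0.04 in its dimmer probe set.

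The aminoacyl-tRNA synthetases had the highest median of these lists, though 0 passed the adjusted test. Of 11 measured cytosolic aminoacyl-tRNA synthetases, which charge tRNAs and include targets of ATF4, 10 were higher and 1 lower, at a median difference of 0.24 against -0.03 over all genes tested. Without rilpivirine replicate 2 the count was 11 and 0, and without replicate 4 it was 7 and 4, at a median of 0.15. Their average was 0.07, -0.05, 0.05 and 0.33 log2 from the mean in rilpivirine replicates 1 to 4, and -0.04, -0.06, -0.14 and -0.16 log2 in control replicates 1 to 4, so that rilpivirine replicate 2 overlapped the controls. Cars, the cysteinyl-tRNA synthetase, measured 5.90, 5.64, 5.68 and 6.03 log2 in rilpivirine replicates 1 to 4, against 5.48, 5.55, 5.44 and 5.27 log2 in control replicates 1 to 4. These values did not overlap, and the difference was 0.38 ± 0.13 log2 (SE, adjusted p = 0.849 in limma); that of Yars, the tyrosyl-tRNA synthetase, was 0.28 ± 0.13 (SE).

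The 27 measured further targets of ATF4 were mixed, with 11 higher and 16 lower at a median of -0.03. The count was the same without rilpivirine replicate 2, also at -0.03. With arrays centred on the genes tested it was 15 and 12, at 0.02. The arginine and lysine transporter Slc7a1 had a difference of 0.48 ± 0.15 log2 (SE, adjusted p = 0.813 in limma) and did not overlap between the groups, with 3.49 to 3.63 log2 in rilpivirine livers and 2.68 to 3.38 in controls. Atf5, a relative of ATF4, had a difference of 0.34 ± 0.13 log2 (SE), Slc3a2, the heavy chain of amino acid exchangers, one of 0.32 ± 0.14 (SE), and Phgdh, which opens serine synthesis, one of 0.31 ± 0.13 (SE). Gpt2, the mitochondrial alanine aminotransferase, had one of -0.38 ± 0.17 log2 (SE).

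The 14 measured genes of the eIF2 kinases, phosphatase and eIF2B had 6 higher and 8 lower, at a median of -0.03, and 9 and 5 at 0.07 without rilpivirine replicate 2. Ppp1r15b, the constitutive counterpart of Ppp1r15a, had a difference of -0.28 ± 0.13 log2 (SE) and the phosphatase's catalytic subunit Ppp1ca one of 0.27 ± 0.15 (SE). Of 16 other regulators, 8 were higher and 8 lower, and 9 and 7 without rilpivirine replicate 2. Map3k5, the kinase ASK1 that IRE1 can recruit, had a difference of -0.65 ± 0.19 log2 (SE, adjusted p = 0.813 in limma), with 6.40 to 7.10 log2 in rilpivirine livers and 7.04 to 7.75 in controls, and Creb3l1, an ER-bound transcription factor related to ATF6, one of 0.22 ± 0.11 (SE).

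**Figure D4:**
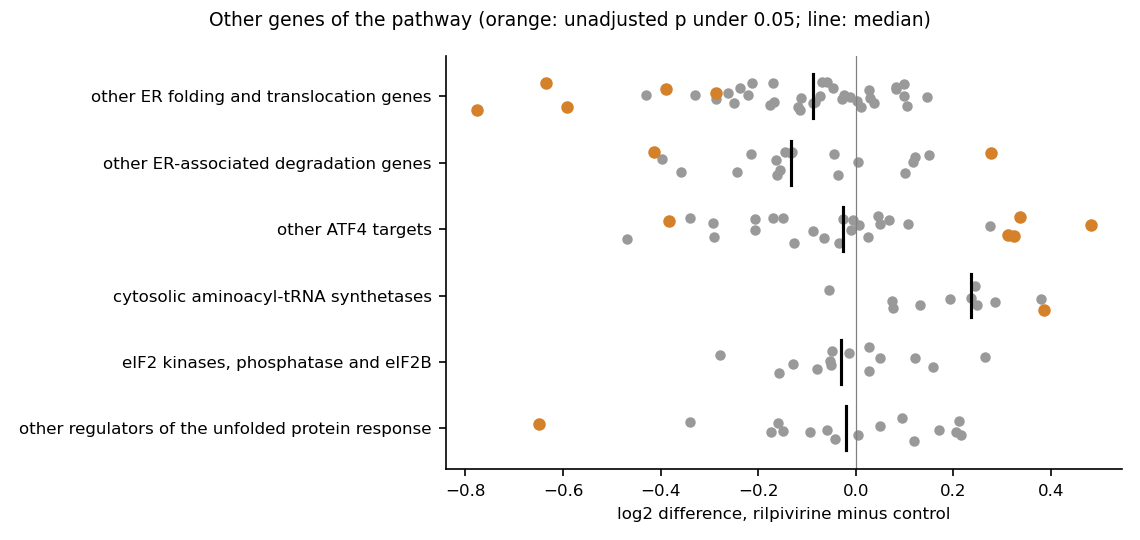
Log2 difference (rilpivirine minus control) of each measured gene of 6 further lists of the pathway; points are genes, orange points have an unadjusted limma p under 0.05, and black lines are medians. The synthetases sit mostly to the right of 0, at a median of 0.24. The import and folding genes sit mostly to the left, at -0.09 (-0.01 without rilpivirine replicate 2, -0.19 without rilpivirine replicate 4).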

How the data were processed

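Per the labels' protocols, 300 ng of liver RNA per sample went onto Affymetrix arrays of 1 colour. The authors deposited log2 values of 41345 probe sets, for which the submitters' processing notes name RMA and limma without a version. Probe sets with a single symbol in the platform annotation were used (23521), giving 22180 genes, of which 5545 with a mean under 2.72 log2 were left out. Differences were fitted across the 16635 genes left with lmFit and eBayes of limma 3.58.1 (R 4.3.3), two-sided, without block, with Benjamini-Hochberg adjustment at 0.05. The script was tested on simulated data with 200 genes changed by 2 log2, of which 99.5% were recovered. That change is larger than the difference of any member, so the test says nothing of smaller differences. Groups come from the sample titles. Every member was named, and of each further pathway list the genes with an unadjusted p under 0.05 or, with fewer than 2, the 2 smallest. Clock and cell type genes did not follow this rule: only some of the 12 clock genes at that threshold were named. Those named were picked out after their values were seen. The members and lists were chosen with earlier results of these data known. Replicate numbers were not treated as pairs. The deviations of same-numbered samples correlated at -0.25, 0.46, -0.09 and 0.07, and the 0.46 of replicate 2 was the highest of any pair. So few values cannot show whether the numbers mark pairs or batches. Alternatives covered moderation, array weights, scaling, filters, probe set choice, the block, samples left out and a small nucleolar RNA covariate. Centring on the genes tested was added after seeing the data. Figures used matplotlib 3.10.9 in Python 3.11.15.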

Additional observations from a re-analysis of the deposited data

Results flagged for a closer look

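In 3 of 64 sets of 4 values (32 genes in each group), a single sample lay far from the others by Dixon's criterion, which chance meets in about 5% of sets. Dnajb11 was low in rilpivirine replicate 2, at 7.03 log2, while the other rilpivirine livers lay between 7.48 and 7.53. Xbp1 was low in rilpivirine replicate 3, at 8.14 log2, while the other rilpivirine livers lay between 8.42 and 8.45. Eif2ak3 was high in control replicate 1, at 5.93 log2, while the other controls lay between 5.30 and 5.39.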

How the results depend on the processing

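Limma called 0 genes under each of the 19 alternatives, and the medians of the 4 roles moved by less than the SD of the role's mean between samples, pooled over both groups, in each. Some changed sign: the chaperone median was -0.12, and 0.04 without rilpivirine replicates 1 and 2; the degradation median was -0.07, 0.05 without replicate 2 and 0.0027 without both; the sensor median was 0.07, and -0.02 without replicate 4; the ATF4 branch median was -0.01, and lay between -0.12 and 0.13 over the alternatives. At an unadjusted p under 0.05 there were 867 genes, 1524 without rilpivirine replicate 4 and 578 without control replicate 1; 38.4% of the 867 were higher, against 48.9% after a further quantile normalization and 57.8% with arrays centred on the genes tested. With the replicate number as a block, 0 genes were called and 1071 had an unadjusted p under 0.05; it changed no call. Of 607 differences of the members, 546 kept their sign and 61 turned, all of them in genes that had not passed the test; the cause was not tested. With array weights the difference of Eif2ak3 was 0.082. With arrays centred on their medians that of Trib3 was -0.0073. After the further quantile normalization the differences were Creld2 0.030, Edem1 0.036, Eif2ak3 0.041, Atf4 0.0096 and Chac1 0.049. Without rilpivirine replicates 1 and 2 the differences were Hsp90b1 0.16, Dnajb9 0.46, Dnajc3 0.041, Pdia3 0.062, Canx 0.23, Hyou1 -0.16, Derl1 0.016, Derl2 0.021, Atf6 0.090, Eif2ak3 0.22, Atf4 0.074 and Ppp1r15a 0.0071. With the small nucleolar RNA covariate the differences were Hsp90b1 0.066, Dnajb9 0.37, Canx 0.13, Creld2 0.042, Hyou1 -0.025, Edem1 0.0071, Sel1l -0.0021, Derl2 0.016, Atf6 0.051, Eif2ak3 0.23, Atf4 0.12 and Asns 0.011. With arrays centred on the genes tested, a setting chosen after seeing the data, the differences were Creld2 0.0035, Edem1 0.017, Eif2ak3 0.039 and Chac1 0.017. With each sample left out in turn the ranges were -0.59 to 0.12 for Dnajb9, -0.20 to 0.039 for Canx, -0.23 to 0.075 for Creld2, -0.092 to 0.22 for Hyou1, -0.14 to 0.085 for Edem1, -0.00028 to 0.12 for Sel1l, -0.17 to 0.046 for Derl1, -0.20 to 0.025 for Atf6, -0.17 to 0.14 for Eif2ak3, -0.24 to 0.062 for Atf4, -0.11 to 0.41 for Atf3, -0.14 to 0.21 for Trib3 and -0.23 to 0.11 for Chac1. Dim signals near the filter value (Asns, Sec61b) limit what their differences show. Derl3 and Manf were also dim, at means of 4.27 and 4.12 log2, and the ATF4 branch had a median of 4.74. The chaperone and degradation genes together had a median of 8.27.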
